A study of Bos taurus with 15 samples.

Results

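Dewlap subcutaneous adipose tissue sampled at -4 weeks peripartum (wkpp), before any diet had begun, was compared with the same depot at 1 wkpp in cows whose labels give the high-energy (HE) diet. These are taken as the study's moderate negative energy balance (MNEB) group, which it formed by the energy balance measured at 1 wkpp and not by diet. The comparison holds 3 libraries per group, 6 of the 15 libraries of the series, and all 13896 gene entries of its table were taken, leaving out the ERCC spike-in entries. All cows were Prim Holstein and primiparous. The HE diet started from -4 wkpp and ran through lactation, so the 1 wkpp cows differed from the -4 wkpp cows in time, calving, lactation and diet at once, and these cannot be told apart. The 3 MNEB cows were picked in the study for the mildest energy deficit among their group at 1 wkpp, and they stand for an extreme of that group. Which cows gave the -4 wkpp libraries is not given in the sources used here, so no cow was paired with itself, and p-values measure only the spread between these libraries. Fasted, sedated cows were sampled through an incision in the skin of the neck, and each library was made from total RNA after removal of ribosomal RNA. The series also holds 3 libraries of cows on the low-energy (LE) diet at 1 wkpp, the severe negative energy balance (SNEB) group, and 3 of each diet at 16 wkpp, which are used below only to place the change.

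White adipose tissue stores fatty acids as triacylglycerol in the droplets of its adipocytes. In ruminants the adipocyte is also a main site of fatty acid synthesis, for which acetate is the usual carbon source, and it takes up further fatty acids that lipoprotein lipase releases from circulating lipoproteins. After calving a dairy cow secretes more energy in milk than it eats, adipose lipogenesis declines, and stored triacylglycerol is broken down by lipolysis to fatty acids and glycerol. The adipocytes lie in a collagenous stroma with fibroblasts, blood and lymphatic vessels and immune cells, all of which add RNA to a bulk sample.

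Reads were counted over exons alone and over the entire gene with its introns, and the whole-number reads of each library were worked back from the deposited means. Libraries are named a to c in order of exonic reads within their group, and the letters link nothing between groups. The -4 wkpp libraries held 14481330, 13875236 and 8339235 exonic reads, and the MNEB libraries held 7038462, 2615671 and 2034144. The ERCC spike-ins, synthetic RNAs added to each RNA sample, gave 1.04, 1.30 and 1.57 reads per 100 entire-gene reads at -4 wkpp and 15.2, 31.5 and 34.4 in the MNEB libraries. Neither measure overlapped between the groups, and the exact two-sided permutation test gave p = 0.1 for each, the smallest value that 3 against 3 allows. The HE libraries at 16 wkpp held 16.3, 23.1 and 17.0 spike-in reads per 100 entire-gene reads. The LE libraries of both weeks held between 0.626 and 2.80. Libraries with few gene reads and many spike-in reads thus went with the HE diet and not with the week. The study lists total reads of a like size in all groups, but a lower aligned share in every MNEB library than in any other. Depth below means reads counted on genes, not reads sequenced. Whatever set the HE libraries apart cannot be told apart from the MNEB group in any result below. The exonic share of the reads overlapped (48.4% ± 6.95 at -4 wkpp and 51.8% ± 3.73 in MNEB, SD, n = 3; exact permutation p = 0.7). Levels below are exonic reads divided by the library's size factor (normalized counts), and overlap between groups refers to these levels. They are relative to the bulk of genes. Scaling by spike-ins in place of gene reads, an alternative added after the data were seen, moved the median log2 fold change of all genes from 0.06 to 4.11, and with it all 99 DEGs that were lower at -4 wkpp turned to higher. Of 32 named and tested genes below 0, DEGs or not, 31 were above 0 on that scale, and HIF3A stayed below. Scaling by total reads moved the median to -0.12. In bulk tissue, fewer cells of a type and less RNA per cell cannot be told apart.

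**Figure D1:**
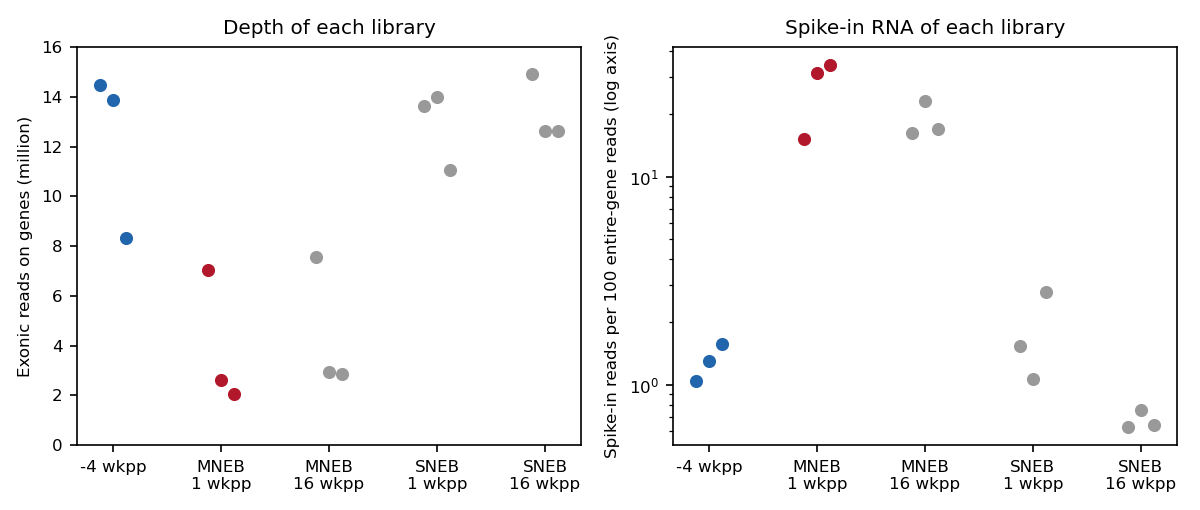
Exonic reads and, on a log axis, spike-in reads per 100 entire-gene reads in each of the 15 libraries, by group. The 6 HE libraries have 15.2 or more spike-in reads per 100 entire-gene reads and the other 9 have 2.80 or fewer.

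A differentially expressed gene (DEG) had an adjusted p below 0.01 in both read classes with the same direction, by limma's voom test with Benjamini-Hochberg adjustment over the 10443 genes tested. Of these, 229 were DEGs (2.19%), of which 130 were higher at -4 wkpp (1.24%) and 99 were lower (0.948%). All fold changes are -4 wkpp over MNEB at 1 wkpp, so a positive log2 value is a gene that was lower after calving. The DEGs higher at -4 wkpp had log2 fold changes from 1.01 to 8.08 with a median of 2.66, and the lower DEGs ran from -1.01 to -3.81 with a median of -1.97. The groups overlapped for none of the 229 DEGs in either read class, whereas groups without overlap in both classes made up 30.2% of all genes tested. Exonic reads alone called 1750 genes, 781 higher (7.48%) and 969 lower (9.28%) at -4 wkpp, and entire-gene reads alone called 240, 140 higher and 100 lower. The log2 fold changes of the 2 read classes had a Pearson correlation of 0.91 over the genes tested, a description, since genes are not replicates. The number of DEGs depended on which library was left out. Without library a of the MNEB group there were 231, of which 145 were among the 229. Without library b or c of that group there were 4 or 5, and without library a, b or c of the -4 wkpp group there were 2, 1 or 6. SCD was a DEG in all 6 of these refits, POSTN in 5 and DGAT2 in 4, while ACSS2 was a DEG without each of the MNEB libraries. Every other DEG named below lost the call in at least 3 of the 6 refits. The direction split also moved with the scaling. Scaled by total reads, 141 of 362 DEGs were higher at -4 wkpp, where 130 of 229 were with size factors.

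**Figure D2:**
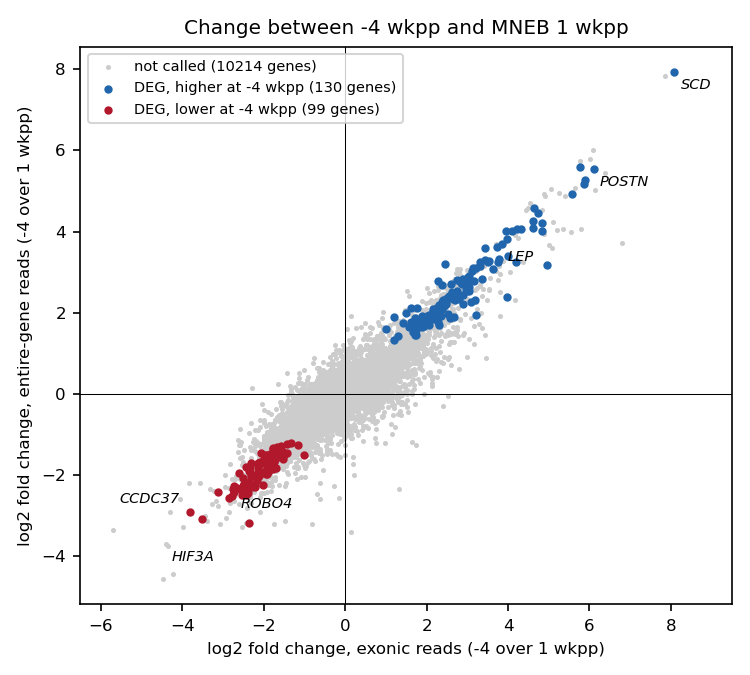
Log2 fold change of every gene tested in exonic reads (x axis) and entire-gene reads (y axis), -4 wkpp over MNEB at 1 wkpp, with DEGs coloured by direction. SCD lies farthest right at 8.08 in exonic reads, and CCDC37 farthest left among the DEGs at -3.81.

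The fatty acid synthesis list held the most DEGs of the pathway lists. Of its 17 tested genes, 9 were DEGs and all 9 were higher at -4 wkpp (background 1.24%), 8 did not pass, and the median log2 fold change of the list was 2.21 against 0.06 over all genes. SCD, the desaturase that makes oleate from stearate, had normalized counts of 203080, 174772 and 188481 at -4 wkpp and 683, 865 and 555 at 1 wkpp. Every -4 wkpp library was above every MNEB library, with a log2 fold change of 8.08 (SE 0.23) and adjusted p = 3.29e-08 in exonic and 3.88e-05 in entire-gene reads (limma). ACSS2, which activates acetate to acetyl-CoA, had 11418, 7781 and 9013 at -4 wkpp and 232, 400.3 and 413 at 1 wkpp, a log2 difference of 4.85 (SE 0.28). ELOVL6, which elongates palmitate, had 5593, 2865 and 4539 at -4 wkpp and 117, 138 and 168 at 1 wkpp, a log2 difference of 4.96 (SE 0.32). THRSP, a nuclear protein of lipogenic cells also called Spot 14, had 8870, 3874 and 7887 at -4 wkpp and 69.2, 149 and 278 at 1 wkpp, a log2 difference of 5.77 (SE 0.49). None of these 4 overlapped between the groups. The other 5 DEGs of the list, named here after their values were seen, were FASN (fatty acid synthase), ACACA (acetyl-CoA carboxylase), ACLY (ATP citrate lyase), SLC25A1 (the mitochondrial citrate carrier) and PGD (an NADPH-forming enzyme of the pentose phosphate pathway). Their log2 fold changes were 4.10, 2.59, 2.15, 2.39 and 2.21, with SEs from 0.21 to 0.32. FASN counts, for instance, were 45246, 36184 and 40657 at -4 wkpp and 1383, 2852 and 3327 at 1 wkpp.

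The regulators of these enzymes held no such call. None of 10 tested genes of the lipogenic regulator list was a DEG by limma-voom, the median was -0.28, and at an unadjusted p below 0.05 in both classes 1 was higher and 3 were lower at -4 wkpp (background 12% and 13.3%). limma-trend called 1, higher at -4 wkpp. SREBF1, the sterol regulatory element binding protein that drives lipogenic genes, had 2113, 3082 and 2194 at -4 wkpp and 1690, 1371 and 2350 at 1 wkpp. These values overlapped, with a log2 difference of 0.46 (SE 0.26) and adjusted p = 0.193 in exonic reads (limma). MLXIPL, the carbohydrate response factor ChREBP, had 267, 202 and 291 at -4 wkpp and 221, 402 and 500.1 at 1 wkpp and also overlapped, at -0.42 (SE 0.31). PPARG, the master regulator of adipocytes, had 351, 332 and 286 at -4 wkpp and 355, 219.5 and 243 at 1 wkpp. Its groups overlapped, and it was not tested because none of the 6 libraries had an entire-gene read of it. Among 11 tested adipogenic factors none was a DEG by limma-voom or limma-trend, 1 was higher and 1 lower at an unadjusted p below 0.05 in both classes, and the median was 0.05.

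Triacylglycerol assembly held DEGs in both directions. Of 12 genes tested, 4 were higher at -4 wkpp (background 1.24%) and 1 was lower (background 0.948%), with a median of 0.28. DGAT2, an acyltransferase that adds the last fatty acid, had 20980, 16831 and 20226 at -4 wkpp and 378, 269 and 329.5 at 1 wkpp, a log2 fold change of 5.87 (SE 0.23) without overlap. DGAT1, the other acyltransferase of that step, was lower at -4 wkpp (higher under spike-in scaling), with 292, 334 and 396 at -4 wkpp and 1126, 899.7 and 1020 at 1 wkpp, a log2 fold change of -1.59 (SE 0.21), also without overlap. Adjusted p values of DGAT1 were 0.000529 in exonic and 0.00836 in entire-gene reads (limma). GPAM, which makes the first acylation of glycerol 3-phosphate, had 16096, 11786 and 15657 at -4 wkpp and 410.1, 902 and 1084 at 1 wkpp, and its log2 fold change was 4.33 (SE 0.35). AGPAT2, the next acyltransferase, had 4042, 5974 and 3658 at -4 wkpp and 353, 347 and 373 at 1 wkpp, and its log2 fold change was 3.64 (SE 0.24). ACSL1, a long-chain acyl-CoA synthetase, had 13511, 8069 and 10812 at -4 wkpp and 1900, 1235 and 1000 at 1 wkpp, at 2.98 (SE 0.29). In GPAM, AGPAT2 and ACSL1 all 3 libraries at -4 wkpp were above all 3 at 1 wkpp.

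**Figure D3:**
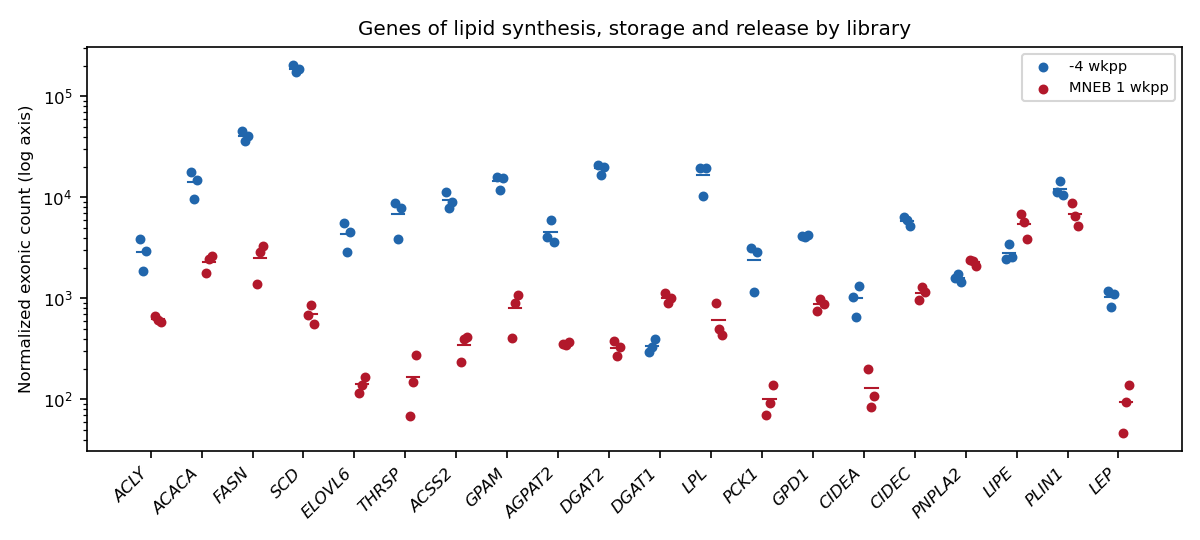
Normalized exonic counts (log axis) of genes of lipid synthesis, storage and breakdown in the 3 -4 wkpp and 3 MNEB libraries, 1 point per library. The synthesis genes do not overlap between the groups, whereas PNPLA2 and LIPE are not DEGs and lie higher in MNEB on this scale, though not under spike-in scaling.

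Genes that supply fatty acids and the glycerol backbone also held DEGs that were higher before calving. LPL, the lipoprotein lipase that frees fatty acids at the capillary wall, had 19708, 10388 and 19648 at -4 wkpp and 909.9, 504 and 431 at 1 wkpp, a log2 fold change of 4.73 (SE 0.34) with no overlap. LPL and ACSL1 were the DEGs of the 12 fatty acid uptake genes tested (background 1.24% higher), whose median was 0.14. Of 9 genes of glyceroneogenesis and glycerol handling 3 were DEGs, all higher at -4 wkpp (background 1.24%), and the median was 1.91. PCK1, the cytosolic carboxykinase that starts glyceroneogenesis, had 3158, 1168 and 2853 at -4 wkpp and 70.9, 92.5 and 139 at 1 wkpp, at 4.63 (SE 0.47). GPD1, which forms glycerol 3-phosphate, had 4110, 4090 and 4212 at -4 wkpp and 758, 988 and 887 at 1 wkpp, at 2.25 (SE 0.20). AQP7, the adipocyte glycerol channel, had 1988, 2155 and 1589 at -4 wkpp and 214, 514 and 517 at 1 wkpp, at 2.39 (SE 0.34). None of the 3 overlapped.

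The lipases themselves were not among the DEGs. PNPLA2, the adipose triglyceride lipase, had 1577, 1742 and 1465 at -4 wkpp and 2413, 2322 and 2087 at 1 wkpp, and its log2 fold change of -0.51 (SE 0.19) had adjusted p = 0.0662 in exonic reads (limma). LIPE, the hormone-sensitive lipase, had 2452, 3481 and 2591 at -4 wkpp and 6828, 5768 and 3871 at 1 wkpp, at -0.92 (SE 0.26) with adjusted p = 0.0204 in exonic and 0.152 in entire-gene reads (limma). Both lipases were lower in every -4 wkpp library than in every MNEB library on this scale, were above 0 under spike-in scaling, and passed the test in neither class. G0S2, an inhibitor of PNPLA2, had 754, 1525 and 787 at -4 wkpp and 1925, 452 and 185 at 1 wkpp. The MNEB libraries of G0S2 spread on both sides of the -4 wkpp values, and its log2 fold change was 0.68 (SE 0.71). Over the lipolysis list, 2 of 16 tested genes were DEGs, both higher at -4 wkpp (background 1.24%), with a median of 0.48. They were AQP7 and CIDEC, a droplet protein that joins droplets into larger ones, which had 6389, 6038 and 5191 at -4 wkpp and 957, 1309 and 1150 at 1 wkpp and a log2 fold change of 2.37 (SE 0.21). CIDEC and its relative CIDEA were also the DEGs among 10 lipid droplet protein genes tested, against the same background, whose median was 1.16. CIDEA had 1038, 655 and 1315 at -4 wkpp and 202, 83.9 and 107 at 1 wkpp, at 2.80 (SE 0.39), and neither gene overlapped. PLIN1, which coats the droplet and restrains lipolysis, had 11379, 14600 and 10613 at -4 wkpp and 8710, 6621 and 5171 at 1 wkpp without overlap, but its log2 fold change of 0.86 (SE 0.25) did not pass (adjusted p = 0.024 in exonic reads, limma).

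Among the secreted products of adipocytes, LEP, which encodes leptin, had 1185, 827 and 1111 at -4 wkpp and 47.0, 94.7 and 139 at 1 wkpp. Its groups did not overlap, and the log2 fold change was 3.84 (SE 0.37) with adjusted p = 0.000123 in exonic and 0.0073 in entire-gene reads (limma). C1QTNF3, a secreted relative of adiponectin, had 909.7, 539 and 899.5 at -4 wkpp and 22.2, 36.6 and 26.0 at 1 wkpp, at 4.83 (SE 0.47), again without overlap. These were the 2 DEGs of 9 adipokine genes tested (background 1.24% higher), and the list's median was 1.52. By limma-trend neither was a DEG. ADIPOQ was not analysed here. Of 12 genes of insulin signalling and glucose uptake, PIK3R1, a regulatory subunit of phosphatidylinositol 3-kinase, was the DEG, against the same background, with 5344, 3409 and 3434 at -4 wkpp and 965, 1709 and 1301 at 1 wkpp and a log2 fold change of 1.62 (SE 0.27). The median of that list was 0.09. SLC2A4, the insulin-responsive glucose transporter GLUT4, had 338, 213 and 322 at -4 wkpp and 134, 108 and 98.3 at 1 wkpp without overlap, at 1.26 (SE 0.30), and passed in exonic reads (adjusted p = 0.00952, limma) but not in entire-gene reads (0.103).

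The oxidative pathways held no DEG by limma-voom, although most of their log2 fold changes were above 0. Of 33 tested genes of oxidative phosphorylation 32 had a log2 fold change above 0, the median was 1.11, and 16 passed in exonic reads alone, all higher (background 7.48%). At an unadjusted p below 0.05 in both classes 19 of the 33 were higher and 0 lower (background 12% and 13.3%). In the tricarboxylic acid cycle 18 of 19 genes were above 0, with a median of 0.89, 6 passed in exonic reads alone, and 10 were higher and 1 lower at the unadjusted threshold. The 20 cholesterol synthesis genes had a median of 1.11, and 6 passed in exonic reads alone. Branched-chain amino acid breakdown had 7 of 17 passing in exonic reads alone and a median of 0.81. Of 20 genes of fatty acid oxidation 6 passed in exonic reads alone, and the median was 0.61. Pyruvate and ketone body use had 8 of 13 genes passing higher and 1 passing lower in exonic reads alone, with a median of 1.09. At the unadjusted threshold in both classes, 9 cholesterol genes, 9 branched-chain genes, 7 oxidation genes and 9 pyruvate and ketone genes were higher, against 0, 0, 2 and 2 lower. limma-trend called 1 DEG each in oxidative phosphorylation, cholesterol synthesis and pyruvate and ketone body use and 0 in the other 3 lists. The 2 genes of these lists named for their role lay on the other side of 0, except under spike-in scaling. CPT1A, the carnitine palmitoyltransferase of the liver type, had 411, 630.4 and 504 at -4 wkpp and 2186, 917 and 951 at 1 wkpp. PDK4, the kinase that shuts pyruvate dehydrogenase, had 1471, 1455 and 1613 at -4 wkpp and 13667, 4937 and 3145 at 1 wkpp. Neither gene overlapped, with log2 fold changes of -1.30 (SE 0.33) and -1.96 (SE 0.45), and neither passed (adjusted p = 0.0146 and 0.0106 in exonic reads, limma).

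The matrix around the adipocytes held the next largest number of DEGs among the pathway lists. Of 22 matricellular protein and proteoglycan genes tested, 8 were DEGs, all higher at -4 wkpp (background 1.24%), and the median was 1.74. POSTN, which encodes periostin, a secreted protein that binds collagen and integrins, had 10768, 5891 and 8539 at -4 wkpp and 154, 112 and 66.5 at 1 wkpp. No library overlapped, and the log2 fold change was 6.10 (SE 0.36) with adjusted p = 9.62e-06 in exonic and 0.000852 in entire-gene reads (limma). FN1, fibronectin, had 99617, 80356 and 64867 at -4 wkpp and 8335, 4318 and 2269 at 1 wkpp, at 4.22 (SE 0.43). ASPN and FMOD, small leucine-rich proteoglycans that bind collagen, had log2 fold changes of 4.01 (SE 0.22) and 3.53 (SE 0.24). Their relatives DCN (decorin) and LUM (lumican), which also serve as fibroblast markers, had 2.84 (SE 0.30) and 2.88 (SE 0.37). DCN counts were 41495, 37368 and 37277 at -4 wkpp and 3223, 7057 and 6761 at 1 wkpp, so that library a of the MNEB group was the lowest. The remaining 2 DEGs, SPARC and FBLN1, were named after their values were seen, at 2.96 (SE 0.25) and 1.93 (SE 0.25). PRG4, which encodes lubricin and is in no list, had 1667, 1626 and 1472 at -4 wkpp and 23.1, 19.4 and 49.1 at 1 wkpp, at 5.90 (SE 0.39) without overlap.

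Collagen genes held DEGs in both directions. Of 11 tested, 2 were higher (background 1.24%) and 1 was lower (background 0.948%) at -4 wkpp, and the median was -0.39. COL1A2, a chain of fibril-forming type I collagen, had 112443, 123505 and 103884 at -4 wkpp and 15508, 14651 and 6680 at 1 wkpp, at 3.31 (SE 0.32). COL8A1, a short-chain network collagen of vessel walls, had 2184, 3699 and 2224 at -4 wkpp and 468, 179 and 197 at 1 wkpp, at 3.22 (SE 0.38). COL18A1, a basement membrane collagen from which endostatin is cut, had 3256, 4468 and 4328 at -4 wkpp and 11207, 12462 and 17962 at 1 wkpp, at -1.78 (SE 0.24) (above 0 under spike-in scaling). None of the 3 overlapped. COL1A1 and COL3A1 are not reported because their reads could not be worked back in both classes. Of 19 matrix proteases and inhibitors, 4 were DEGs, all higher at -4 wkpp (background 1.24%), with a median of 1.09. SERPINF1, pigment epithelium-derived factor, had 3114, 2611 and 2347 at -4 wkpp and 126, 62.4 and 159 at 1 wkpp, a log2 fold change of 4.60 (SE 0.32). LOX, which cross-links collagen, had 2236, 1592 and 1965 at -4 wkpp and 384, 316 and 309 at 1 wkpp, at 2.48 (SE 0.23). SERPINH1, the collagen chaperone HSP47, and ADAMTS2, which trims procollagen, had log2 fold changes of 2.16 (SE 0.23) and 2.53 (SE 0.25). All 4 were without overlap.

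**Figure D4:**
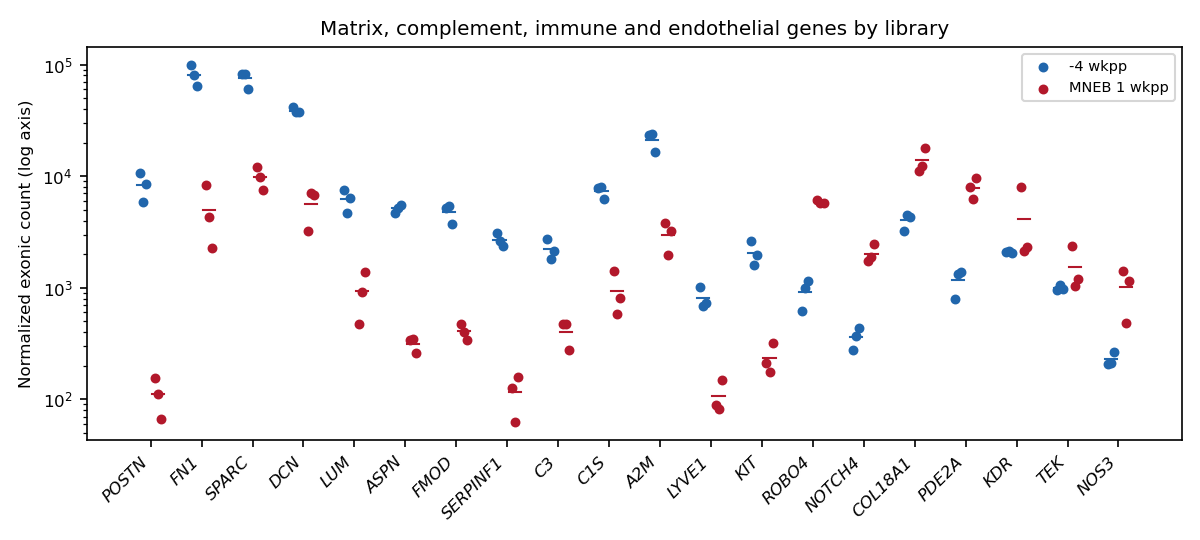
Normalized exonic counts (log axis) of matrix, complement, immune and vessel genes in the 3 -4 wkpp and 3 MNEB libraries, 1 point per library. POSTN and SERPINF1 lie higher at -4 wkpp and ROBO4 and NOTCH4 lie higher in MNEB on this scale, though not under spike-in scaling, all without overlap.

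The complement list also held several DEGs. Of 21 tested complement and coagulation genes 5 were DEGs, all higher at -4 wkpp (background 1.24%), and the median was 1.46. C1S, a protease of the first complement component, had 7786, 7928 and 6267 at -4 wkpp and 1411, 579 and 812 at 1 wkpp, at 3.04 (SE 0.31). C3, the component on which all complement routes meet, had 2754, 1793 and 2139 at -4 wkpp and 468, 469 and 278 at 1 wkpp, at 2.43 (SE 0.27). C2 had a log2 fold change of 2.56 (SE 0.29), and A2M, a broad protease inhibitor of plasma, had 2.87 (SE 0.29). The fifth was C1R, another protease of the first component, named after its values were seen, at 2.05 (SE 0.22). None of the 5 overlapped. The complement genes C1QA, C1QB and C1QC had no entire-gene read in any of the 6 libraries and were not tested. Genes of MHC class II presentation held no DEG by limma-voom or limma-trend among 6 tested, although all 6 were without overlap between the groups, 4 passed in exonic reads alone (background 7.48% higher) and 5 were higher at the unadjusted threshold in both classes (background 12%), with a median of 1.92. Their overlap-free share is read against 30.2% of all genes.

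Mast cell markers were low in all 3 MNEB libraries. KIT, the stem cell factor receptor of mast cells and some other cells, had 2610, 1594 and 1980 at -4 wkpp and 210.2, 176 and 321 at 1 wkpp, at 3.18 (SE 0.28), and was a DEG. CPA3, a carboxypeptidase of mast cell granules, had 883, 561 and 580.0 at -4 wkpp and 24.8, 17.2 and 20.2 at 1 wkpp. It did not overlap, at 4.88 (SE 0.48), and missed in entire-gene reads (adjusted p = 0.011, limma). The 4 tested mast cell markers had a median of 4.73, 1 was a DEG (2 by limma-trend) and all 4 passed in exonic reads alone, against 1.24% and 7.48% of all genes higher. Their normalized counts summed to 3671, 2365 and 2732 before the diets against 237.5, 221.7 and 344.0 in MNEB. Among lymphatic vessel markers LYVE1, a hyaluronan receptor, had 1016, 681 and 728 at -4 wkpp and 88.0, 81.8 and 150.3 at 1 wkpp, at 3.03 (SE 0.31), and was the DEG of 6 tested (2 by limma-trend), against the same 1.24%. The sum of the lymphatic list was 4038, 3018 and 3603 at -4 wkpp against 795, 2027 and 1301 in MNEB, without overlap.

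The DEGs that were higher in MNEB than before calving (lower under spike-in scaling) included genes of blood vessels. Among the 18 tested genes of angiogenesis and endothelial signalling 17 had a log2 fold change below 0, the median was -1.08, and 2 were DEGs, both lower at -4 wkpp (background 0.948%). Exonic reads alone called 9 lower and 0 higher (background 9.28% lower). ROBO4, a guidance receptor of endothelial cells, had 613, 993 and 1143 at -4 wkpp and 6101, 5749 and 5807 at 1 wkpp, at -2.73 (SE 0.25). NOTCH4, a Notch receptor of endothelium, had 274, 372 and 433 at -4 wkpp and 1738, 1881 and 2454 at 1 wkpp, at -2.51 (SE 0.24). Neither overlapped. KDR and TEK, the receptors for vascular endothelial growth factor and for angiopoietins, were not DEGs, with log2 fold changes of -0.68 (SE 0.44) and -0.53 (SE 0.30). KDR counts in MNEB were 7919, 2114 and 2333 against 2093, 2142 and 2056 at -4 wkpp, so that library b lay within the -4 wkpp range and library a far above it. FLT1 and NOS3, the endothelial nitric oxide synthase, were at -0.89 (SE 0.22) and -2.03 (SE 0.36), also not DEGs. The summed blood endothelial markers were 16660, 20966 and 17549 before the diets against 53305, 24306 and 36043 in MNEB. None of the 7 was a DEG by limma-voom or limma-trend, and 2 were lower at the unadjusted threshold (background 13.3%).

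The 10 abundant DEGs with the largest log2 fold changes on that side, all above 0 under spike-in scaling, were CCDC37, CHRNA1, ABI3, SLC4A11, PDE2A, GRIPAP1, HID1, ROBO4, ALS2CL and RAPGEF3. CCDC37 had 8.89, 13.5 and 35.9 at -4 wkpp and 185, 202 and 283 at 1 wkpp, at -3.81 (SE 0.45), from few reads at -4 wkpp. CHRNA1, a subunit of the acetylcholine receptor, had 22.5, 65.2 and 83.8 at -4 wkpp and 443, 525 and 723 at 1 wkpp, at -3.52 (SE 0.43). PDE2A, a phosphodiesterase that cyclic GMP activates, had 794, 1338 and 1387 at -4 wkpp and 7986, 6181 and 9571 at 1 wkpp, at -2.77 (SE 0.27). RAPGEF3, a cyclic AMP-gated exchange factor for Rap also called EPAC1, had 429, 543 and 779 at -4 wkpp and 3655, 3502 and 3639 at 1 wkpp, at -2.67 (SE 0.24). All 3 libraries at 1 wkpp exceeded all 3 at -4 wkpp in each. ABI3, an adaptor of actin regulation, and SLC4A11, a membrane transporter, were at -3.13 (SE 0.33) and -2.85 (SE 0.36). GRIPAP1, an endosomal protein, had 357, 485 and 724 at -4 wkpp and 2294, 3289 and 5035 at 1 wkpp, at -2.76 (SE 0.33). HID1 and ALS2CL were at -2.73 (SE 0.38) and -2.73 (SE 0.31). Groups without overlap were a condition for choosing these 10.

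The glucocorticoid, clock and hypoxia lists held 1 DEG between them. PER1, a clock gene that glucocorticoids also induce, had 1002, 957 and 1661 at -4 wkpp and 5188, 3706 and 3550 at 1 wkpp. It was the DEG of both the glucocorticoid list (1 lower of 13 tested, background 0.948%, median -0.88) and the clock list (1 lower of 16, median 0.07), at -1.80 (SE 0.26) without overlap (above 0 under spike-in scaling). FKBP5, a glucocorticoid-induced chaperone partner, had 1020, 359 and 1007 at -4 wkpp and 3317, 1627 and 829.6 at 1 wkpp, and library c of the MNEB group lay within the -4 wkpp range. HIF3A, a hypoxia-inducible factor subunit, had 133, 54.7 and 184 at -4 wkpp and 2034, 3850 and 1509 at 1 wkpp. The MNEB libraries were all above the others, at -4.41 (SE 0.47), with adjusted p = 0.000353 in exonic but 0.0121 in entire-gene reads (limma), so that it was not a DEG. None of 16 hypoxia genes was a DEG by limma-voom, with a median of 0.03, while limma-trend called 1, lower at -4 wkpp. At the unadjusted threshold 3 hypoxia genes were higher and 4 lower (background 12% and 13.3%).

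In the growth hormone and IGF list, IGFBP6, a binding protein for IGF2, was the DEG of 14 tested (background 1.24% higher), with 2791, 3012 and 3202 at -4 wkpp and 492, 129 and 364 at 1 wkpp and a log2 fold change of 3.31 (SE 0.40). The list's median was 0.73. GHR, the growth hormone receptor, had 2369, 1960 and 1863 at -4 wkpp and 799.7, 710.3 and 393 at 1 wkpp, at 1.72 (SE 0.27), and passed in exonic reads (adjusted p = 0.00132, limma) but not in entire-gene reads (0.103). IGF1 had 191, 267 and 185 at -4 wkpp and 108, 77.5 and 49.1 at 1 wkpp, at 1.32 (SE 0.34), and passed in neither class. Receptors for reproductive hormones held no DEG by limma-voom or limma-trend among 7 tested, with a median of 1.72 and 4 passing in exonic reads alone, all higher (background 7.48%), the same number as at the unadjusted threshold (background 12%). ESR1, the estrogen receptor alpha, had 368, 354 and 254 at -4 wkpp and 36.7, 112 and 116 at 1 wkpp without overlap, at 2.35 (SE 0.42), and passed in exonic reads only (adjusted p = 0.00223 and 0.142, limma). PGR, the progesterone receptor, had 24.3, 10.5 and 39.7 at -4 wkpp and 37.6, 77.5 and 145 at 1 wkpp, which overlapped. PRLR, the prolactin receptor, stayed at 2.81, 2.51 and 2.99 at -4 wkpp and 0.854, 10.8 and 8.67 at 1 wkpp, too few reads to be tested.

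Several lists that mark tissue handling, stress, immunity or growth held no DEG by limma-voom. Immediate early genes had 14 of 15 log2 fold changes below 0 and a median of -0.59, with 0 passing in exonic reads alone and 1 lower at the unadjusted threshold. Heat shock proteins had a median of 0.80 over 18 genes, with 2 higher and 1 lower in exonic reads alone (background 7.48% and 9.28%) and 4 higher and 1 lower at the unadjusted threshold (background 12% and 13.3%). Cytosolic ribosomal proteins had a median of 0.21 over 35 genes, interferon-stimulated genes -0.82 over 14, and cell division genes 0.50 over 16. None of these 3 lists had a gene passing in exonic reads alone, and each had 1 lower and 0 higher at the unadjusted threshold, below the background. By limma-trend the count was 0 in all 5 lists.

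**Figure D5:**
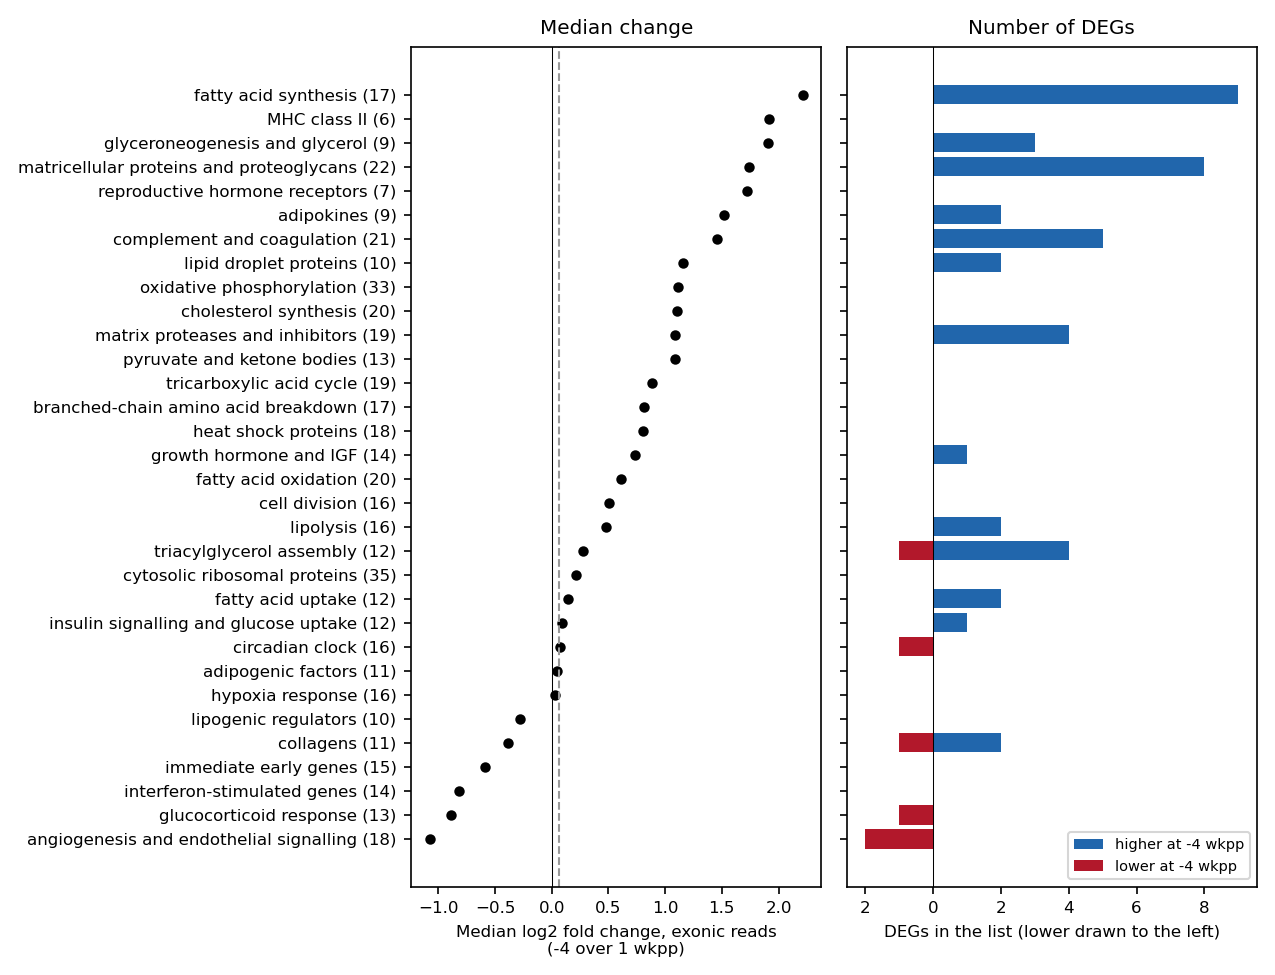
Median log2 fold change of each gene list (left, genes tested in brackets, dashed line at the median of all genes, 0.06) and its number of DEGs, higher at -4 wkpp drawn to the right and lower to the left (right). Fatty acid synthesis with 9 DEGs and matricellular genes with 8 have the most, while oxidative phosphorylation lies at a median of 1.11 with none.

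The tissue label was checked with cell type markers. Adipocyte markers were present in every library, with summed normalized counts of 54065, 51928 and 53637 at -4 wkpp and 39703, 14750 and 11138 in MNEB. In this sum library a of MNEB lay nearer to the -4 wkpp libraries than to the other 2 of its group. Most of that library's sum came from FABP4. Its counts of the other markers found, PLIN1, LPL, CIDEC, CIDEA and LEP, were each below those of every -4 wkpp library. Of the 6 tested markers 4 were DEGs, all higher at -4 wkpp (background 1.24%). Fibroblast markers were summed at 61626, 53972 and 54254 against 11085, 13880 and 15734, with most of the -4 wkpp sums from DCN. Of 4 tested, 3 were DEGs against the same background, among them PDGFRA, the platelet-derived growth factor receptor alpha, at 2.41 (SE 0.21). The other marker, PDGFRB, was not a DEG and had a log2 fold change below 0 on this scale. Smooth muscle and pericyte markers overlapped (41209, 9282 and 9847 against 19307, 13663 and 9363), as did macrophage markers (6460, 9926 and 5851 against 6796, 1834 and 3888), including CSF1R at 0.50 (SE 0.34). Schwann cell markers were at 3620, 1806 and 2224 against 1139, 6029 and 769, with library b of MNEB the highest of all. Skeletal muscle markers were at 70.2, 293 and 227 against 961, 1367 and 3223, most of it from TNNT3, while the 8 other markers found had at most 75.3 in any library. T cell markers (188, 127 and 144 against 71.8, 58.1 and 113) and B and plasma cell markers (35.1, 24.6 and 44.9 against 51.3, 32.3 and 98.3) were low. Neutrophil markers were at 225, 245 and 193 against 188, 34.4 and 199. Erythrocyte markers were at 231, 27.6 and 233 against 14.5, 51.7 and 275, with HBB at 1.88 (SE 1.32). The skin lists also differed between libraries. Hair keratin genes, KRT31 and KRT85 among them, were at 721, 148 and 466 at -4 wkpp and 0, 23.7 and 17.3 in MNEB, and other keratinocyte genes at 533, 321 and 469 against 49.6, 181 and 543. Mammary epithelial markers were at 355, 67.7 and 281 against 31.6, 245 and 46.3, mostly from the 2 epithelial keratins of the list, while the milk protein genes had at most 10.8 in any library. None of the smooth muscle, macrophage, Schwann, skeletal muscle, T cell, B cell, neutrophil, erythrocyte, keratinocyte, hair keratin or mammary markers was a DEG by limma-voom or limma-trend. At the unadjusted threshold 2 of 6 Schwann, 1 of 4 keratinocyte and 1 of 3 hair keratin markers tested were higher (background 12%). Of 3 skeletal muscle markers tested 1 was lower (background 13.3%). The part of these cell markers in the results above was not tested.

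Of the genes that the study also followed by RT-qPCR, POSTN, SERPINF1 and TF were DEGs here. TF, the iron carrier transferrin, had 3139, 5113 and 2760 at -4 wkpp and 78.6, 62.4 and 75.2 at 1 wkpp, at 5.57 (SE 0.36) without overlap. CCL21, a chemokine of lymphatic vessels, had 455, 731 and 405 at -4 wkpp and 4.27, 10.8 and 34.7 at 1 wkpp. It did not overlap, at 5.76 (SE 0.72), but its adjusted p was 0.00043 in exonic and 0.0863 in entire-gene reads (limma). C1QTNF1, another secreted relative of adiponectin, had 2540, 3226 and 2129 at -4 wkpp and 875, 631 and 650.4 at 1 wkpp, at 1.85 (SE 0.24), and missed in entire-gene reads only (0.0179). RASGEF1A had 27.6, 13.5 and 23.2 at -4 wkpp and 103, 109.8 and 109.8 at 1 wkpp, at -2.37 (SE 0.36), and likewise missed in entire-gene reads only (0.0145, limma). ADAMTS4, an aggrecan-cutting protease, had 42.6, 87.8 and 63.6 at -4 wkpp and 1235, 129 and 202 at 1 wkpp, led by library a of MNEB, at -2.62 (SE 0.80). VASN overlapped between the groups, at 0.73 (SE 0.35). MAPK10, FGF14, SNAP91, CADPS, TRPM8, STAB2, DUSP27, ANO4 and CPS1 had at most 54.9 normalized exonic counts in any of the 6 libraries. STAB2, for instance, had 1.40, 0.502 and 15.0 at -4 wkpp and 1.71, 30.1 and 43.4 at 1 wkpp, and in each of these 9 genes the highest exonic value lay in library b or c of MNEB. Over the entire gene all 9 were higher in library c at -4 wkpp and in libraries b and c of MNEB than in the other libraries. Normalized entire-gene counts of FGF14, for instance, were 95.8, 21.8 and 910 at -4 wkpp and 64.9, 2449 and 2557 at 1 wkpp. The cause of this pattern was not tested. Of the study's reference genes, UXT and SDHA had log2 fold changes of 0.86 (SE 0.40) and 0.74 (SE 0.22) and PPIA 1.26 (SE 0.28). None was a DEG, but PPIA passed in exonic reads alone (adjusted p = 0.00658, limma), with 464, 553 and 498 at -4 wkpp and 288, 176 and 142 at 1 wkpp.

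Exonic and entire-gene reads disagreed in direction for 1443 of the 10443 genes, and none of these passed in both classes. The 5 with the widest gap were FASTKD1, METTL12, NELL2, FSTL5 and PPP1R14C. FASTKD1 had a log2 fold change of 0.13 (SE 0.34) in exonic and -3.41 (SE 0.56) in entire-gene reads. METTL12 had 1.32 (SE 0.41) and -2.34 (SE 0.36). The other 3 had at most 34.4 normalized exonic counts in any library. A further 112 genes met the read minimum in exons but not over the entire gene, 107 of them with no entire-gene read at all, and PPARG and C1QA were among these.

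The change can be placed beside the other groups, each fitted with all 15 libraries. In that fit the change from -4 wkpp to MNEB itself gave 1076 DEGs, 384 higher and 692 lower at -4 wkpp, and that count and not 229 is of the same form as those below. MNEB against SNEB at 1 wkpp gave 345 DEGs of 10297 (3.35%), 238 higher in MNEB (2.31%) and 107 lower (1.04%), but 0 with only its 6 libraries (limma-voom, 1958 at an unadjusted p below 0.05 in both classes). The -4 wkpp libraries against SNEB gave 25 DEGs of 10587, all higher at -4 wkpp (0.236%), and 4 with only its 6 libraries. This comparison shares the -4 wkpp libraries with the one above. For SCD the log2 fold change of -4 wkpp over SNEB was 6.21 (SE 1.20), beside 8.08 over MNEB, and it was not a DEG against SNEB (adjusted p = 0.0123 in exonic and 0.0361 in entire-gene reads, limma). For DGAT2 it was 4.77 beside 5.87, for THRSP 4.61 beside 5.77 and for PCK1 5.24 beside 4.63, and these 3 were DEGs against SNEB. The test of MNEB against SNEB was not passed by any of these 4, with log2 differences of -1.86 (SE 1.09), -1.08 (SE 0.76), -1.19 (SE 0.71) and 0.60 (SE 0.62). By list, 0 of 17 fatty acid synthesis genes passed the test of MNEB against SNEB (background 3.35%), with a median log2 difference of -0.53. ELOVL6 of that list was at -1.85 (SE 0.35), with adjusted p = 0.00158 in exonic and 0.232 in entire-gene reads (limma). Lower in MNEB were 5 of 21 complement, 1 of 22 matricellular and 2 of 19 matrix protease genes (background 1.04%). POSTN, FN1, COL1A2, LUM and SERPINF1 did not pass the test of MNEB against SNEB, and CIDEC was lower in MNEB by a log2 difference of -1.80. Of the genes that passed, A2M was at -0.37 over SNEB beside 2.87 over MNEB, C3 at -0.60 beside 2.43, LYVE1 at -0.55 beside 3.03, LOX at 0.06 beside 2.48 and DCN at 0.52 beside 2.84. All 5 were lower in MNEB than in SNEB, by log2 differences of -3.22, -3.00, -3.57, -2.40 and -2.27, and were DEGs of that test. ROBO4, NOTCH4 and COL18A1 were DEGs of it as well, higher in MNEB by log2 differences of 2.02, 1.80 and 1.84. Since depth and spike-in share separate the MNEB from the SNEB libraries as they separate them from the -4 wkpp libraries, diet and library cannot be told apart in these differences. The sample titles also carry a tag that the sources used here do not explain. It is the same for -4 wkpp and MNEB at 1 wkpp, and differs from that of SNEB at 1 wkpp and of HE at 16 wkpp. MNEB at 1 wkpp against HE cows at 16 wkpp, whose libraries have like depth and spike-in share, gave 0 DEGs of 9832 by limma-voom (881 at an unadjusted p below 0.05 in both classes, and 0 with only its 6 libraries). SCD was at a log2 difference of -3.11 (SE 1.07) for 1 over 16 wkpp, POSTN at -2.75 (SE 1.53) and ROBO4 at 0.91 (SE 0.28).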

How the data were processed

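Per the labels and the study's methods, stranded total RNA libraries depleted of ribosomal RNA were demultiplexed with bcl2fastq 2.15.0, trimmed with cutadapt 1.3, aligned with TopHat2 to bosTau8, and counted with HTSeq (htseq-count, intersection-nonempty mode) over exons and over entire genes. The authors then ran DESeq2, and each of 6 deposited tables holds 6 libraries. Only its mean columns were used, which give, per gene and read class, the deposited mean of counts divided by the size factors over the 6 libraries. The authors' fold changes, their standard errors, test statistics, p-values and adjusted p-values stand beside them and were not used. Each library enters 2 or 3 tables, so its whole reads were solved for from these means and accepted where all 6 means matched the 15 printed digits, in 13894 of 13896 genes per class. The solution was shown to be the only one for 13848 genes in exons and 13772 over entire genes, and for the other 46 and 122 the nearest solution was taken. COL3A1 was not recovered in either class, RN7SL1 not in exons and COL1A1 not over entire genes. The 86 recovered spike-ins of 92 had the same reads in both classes, but 74 of them were used in the recovery, so that 12 are an independent check. A library's group follows from the tables that hold it, but it could not be matched to a sample number. The recovery and the fits were tested on simulated data.

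Genes with at least 10 reads in at least 3 of the 6 libraries in both classes were tested with limma 3.58.1 (voom, robust eBayes, statmod 1.5.0) in R 4.3.3, with library sizes from the recovered size factors. limma was used in place of the authors' DESeq2 because the reads are recovered values. MNEB against the other diet and the other week was fitted with all 15 libraries. Recovery used mpmath 1.4.1 and numpy 2.4.6 in Python 3.11.15, exact tests used scipy 1.17.1, and tables and plots were made with pandas 2.3.3 and matplotlib 3.10.9. Exonic depth ran from 2034144 to 14481330 reads. The median SE of the log2 fold change was 0.29, which holds both counting error and the spread between libraries. Named genes were the 10 DEGs with the largest change in each direction at a mean of at least 100 normalized counts and without overlap, up to 4 DEGs per direction of each list, members with a known role, the genes of the study's RT-qPCR (1 is not reported here), and the 5 largest of opposite direction in the 2 classes. Members and lists were chosen with earlier results of these data known. Alternatives were another threshold, read class, filter, test, scaling, depth and set of libraries.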

Additional observations from a re-analysis of the deposited data

Results flagged for a closer look

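The spike-in share of the MNEB libraries at 1 wkpp, at 15.2, 31.5 and 34.4 reads per 100 entire-gene reads, lay above that of every -4 wkpp library, in reads outside the gene comparison.

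The change from -4 wkpp differed between the diets for 345 genes, by the direct test of MNEB against SNEB at 1 wkpp in the fit of 15 libraries (limma, adjusted p below 0.01 in both read classes). With only the 6 libraries of that comparison it was 0. Among the genes named here, those lower in MNEB than in SNEB had log2 differences of -3.22 for A2M, -3.04 for C1S, -1.98 for C2, -3.00 for C3, -1.80 for CIDEC, -2.27 for DCN, -2.40 for LOX, -3.57 for LYVE1 and -1.94 for PDGFRA. Those higher in MNEB had 2.12 for ABI3, 2.16 for ALS2CL, 1.84 for COL18A1, 1.27 for DGAT1, 2.47 for GRIPAP1, 2.36 for HID1, 1.74 for MLXIPL, 1.80 for NOTCH4, 1.70 for PDE2A, 1.23 for PER1, 1.80 for RAPGEF3 and 2.02 for ROBO4. Depth and spike-in share differ between these groups in the same way, and their part was not tested.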

How the results depend on the processing

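The 229 DEGs, 130 higher and 99 lower at -4 wkpp, became 1750 (781 and 969) in exonic reads alone, 1105 (466 and 639) at an adjusted p below 0.05, 68 (54 and 14) with no filter on low counts, 369 (185 and 184) at a mean normalized count of at least 100, 1611 (706 and 905) with sample quality weights, 362 (141 and 221) scaled by total reads and 1076 (384 and 692) fitted with all 15 libraries. Leaving out 1 library gave 1 to 231 DEGs, 1 to 119 higher and 0 to 112 lower, and with 2 libraries left in a group the spread is assumed to be like that of the other group. Spike-in scaling, chosen after seeing the data, gave 10014, of which 10014 were higher and 0 lower (limma-voom). Entire-gene reads alone, limma-trend, upper quartile scaling and thinning to the smallest library stayed within 1.5 times, at 240, 295, 294 and 221. MNEB against SNEB fell from 345 to 0 with only its 6 libraries and rose to 1406 in exonic reads alone. Of 1573 values of the 95 named genes tested, spike-in scaling left out, 1215 kept their direction and their side of the threshold, 312 lost the call, 35 gained it and 11 changed direction. Spike-in scaling turned 31 of the 32 below 0 to above 0. The 11 were FASTKD1 (-3.41 in entire-gene reads, -0.059 by total reads, -0.073 to 0.48 when 1 library was left out), FSTL5 (-1.19 in entire-gene reads, -1.16 to 1.75 when 1 library was left out), NELL2 (-1.26 in entire-gene reads, -0.72 to 2.55 when 1 library was left out), METTL12 (-2.34) and PPP1R14C (-0.30) in entire-gene reads, G0S2 (-0.0027 without MNEB library c, up to 1.68 without a) and MAPK10 (0.19 without -4 wkpp library b, down to -3.15 without MNEB library a). Among the 6 refits FASTKD1 was below 0 without -4 wkpp library c, and FSTL5 and NELL2 were without MNEB library a. The cause of these changes was not tested. Depth limits genes with few reads in MNEB libraries b and c. No paired analysis was possible because the recovered libraries carry no replicate number.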
